A study of Mus musculus with 4 samples.

Results

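Exonic CpG sites away from promoters are CpG dinucleotides inside the exons of protein-coding genes that lie more than 2 kb from the 5′ end of any annotated gene. They were taken from the GENCODE vM1 annotation of mm9, on the 19 autosomes, and had to be covered by at least 10 reads in all 4 libraries. By this rule 45340 of 400195 covered CpG sites were exonic, or 11.6% of the 391628 covered autosomal sites. They lay in 9573 exons of 5712 of the 21418 autosomal protein-coding genes, with a median of 3 and at most 90 sites per exon, and 448 of them lay in exons of more than 1 gene. The methylation level of a site is the share of its reads that were methylated.

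The assay was RRBS-seq. It cuts DNA with MspI, whose cutting site holds a CpG, and treats the fragments with bisulfite, which converts unmethylated cytosines. Bisulfite does not separate methylated from hydroxymethylated cytosines. The cells were mouse ES cells labelled Chr4-cl WT and Chr4-cl KO, the latter lacking a cluster of KRAB-ZFP genes on chromosome 4 that was removed with a pair of CRISPR gRNAs. Both genotypes came from B6;129-Gt(ROSA)26Sor tm1(cre/ERT)Nat/J ES cells and from picked individual clones, so genotype and clone cannot be told apart. Each was grown either in serum, meaning standard medium with 20% FCS and LIF, or for 1 week in 2i medium with vitamin C. There was 1 library per condition. Every difference below is therefore a difference between libraries with no replicate check, and Fisher's exact test on reads compares the libraries, not the conditions.

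CpG methylation is placed by the DNMT3 enzymes and copied after replication by DNMT1 with UHRF1. Outside CpG islands the bodies of transcribed genes, exons included, are usually methylated, and DNMT3B is drawn to them by H3K36me3, the histone mark left by elongating RNA polymerase. In 2i medium the methylation machinery of ES cells is weakened, and vitamin C raises the activity of the TET enzymes, which oxidise methylcytosine. CpG-rich exons, such as those of developmental transcription factors, can lie in CpG islands that stay free of methylation.

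The exonic sites were covered by a median of 60 (WT) and 75 (KO) reads in serum, and by 90 and 38 reads in 2i + Vitamin C. Over all sites the summed reads per library ranged from 42684672 to 90649194. Across the span of the deleted cluster the WT libraries held 83433 and 102482 reads in serum and 2i + Vitamin C and the KO libraries 815 and 1124, as the genotype labels say. No exonic site in that span had 10 reads in any library. Chromosome 2 took a larger share of all reads in KO than in WT cells, by 1.13 times in serum and 1.15 times in 2i + Vitamin C. At the promoter of Sox2, a core pluripotency gene, the 31 covered sites had a mean of 1.07 to 1.67% methylation in the 4 libraries, while Pou5f1, Nanog and Dppa3 had no covered promoter site.

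The reference sequences of 5 exon windows show what these sites look like. They come from mm9, are written 5′ to 3′ on the strand of the gene, and carry in capitals the CG of each covered exonic site. The first pair, from Flg2 and Col6a2, belongs to the coding exons that kept the most methylation in WT cells in 2i + Vitamin C. The second pair, from Ly75 and Camta1, belongs to the coding exons with the largest loss in KO cells in that medium. The last window, from Fat1, belongs to the coding exon with the largest gain. The Flg2 window lies at chr3:93018504-93018743 on the plus strand, and the Col6a2 window at chr10:76066212-76066451 on the minus strand. The Ly75 window is chr2:60131820-60131989 on the minus strand, and the Camta1 window is chr4:150518861-150519100 on the minus strand. The Fat1 window spans chr8:46095216-46095455 on the plus strand.
Flg2: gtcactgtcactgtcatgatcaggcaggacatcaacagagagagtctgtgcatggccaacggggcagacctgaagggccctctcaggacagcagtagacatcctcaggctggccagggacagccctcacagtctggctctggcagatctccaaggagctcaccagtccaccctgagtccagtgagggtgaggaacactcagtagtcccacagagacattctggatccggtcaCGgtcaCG
Col6a2: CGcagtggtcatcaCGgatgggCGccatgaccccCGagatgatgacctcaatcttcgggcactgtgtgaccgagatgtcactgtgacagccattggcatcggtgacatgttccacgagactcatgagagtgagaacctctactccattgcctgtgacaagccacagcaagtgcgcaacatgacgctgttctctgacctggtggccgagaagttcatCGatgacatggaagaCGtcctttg
Ly75: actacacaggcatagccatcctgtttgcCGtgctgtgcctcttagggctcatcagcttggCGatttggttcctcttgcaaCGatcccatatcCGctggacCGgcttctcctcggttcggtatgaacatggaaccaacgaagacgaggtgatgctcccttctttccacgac
Camta1: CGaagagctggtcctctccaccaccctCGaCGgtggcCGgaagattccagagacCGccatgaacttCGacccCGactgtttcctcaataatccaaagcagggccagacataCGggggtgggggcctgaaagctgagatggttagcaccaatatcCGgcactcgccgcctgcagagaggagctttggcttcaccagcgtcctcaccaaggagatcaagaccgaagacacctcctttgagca
Fat1: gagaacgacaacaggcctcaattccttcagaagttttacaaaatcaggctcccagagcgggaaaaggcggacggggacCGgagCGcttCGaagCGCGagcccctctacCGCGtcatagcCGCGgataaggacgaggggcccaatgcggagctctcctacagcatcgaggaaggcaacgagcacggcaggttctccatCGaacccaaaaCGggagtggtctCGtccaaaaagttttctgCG
The windows differ in how many CpG dinucleotides they hold. The Flg2 window has 4, of which 2 are covered, whereas the Fat1 window has 22, of which 13 are covered. The Col6a2 window has 13 with 6 covered, Ly75 10 with 5 and Camta1 13 with 9. CpG dinucleotides in lower case were not covered by 10 reads in every library.

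In serum the exonic sites fell into a methylated and an unmethylated group, and in 2i + Vitamin C the methylated group was nearly gone. Mean methylation over sites was 44.2% (WT) and 49.8% (KO) in serum, then 19.3% and 17.0% in 2i + Vitamin C, with SDs over sites of 38.6, 39.4, 21.6 and 20.6 points. In WT cells in serum 31.6% of the sites were methylated at 80% or more and 42.4% below 20%. In KO cells in serum these shares were 39.3% and 38.1%. In 2i + Vitamin C only 0.549% of the sites in WT and 0.607% in KO cells were at 80% or more, and 62.9% and 66.0% were below 20%. With reads pooled over sites, which gives deeply covered sites more weight, the levels were 32.9%, 33.9%, 13.8% and 12.9%. Sites just outside the distance limit, 1.5 to 2 kb from a gene's 5′ end, had a mean of 21.5% in WT cells in serum, and those just inside it, at 2 to 2.5 kb, 27.2%. Sites just under the coverage limit, at 8 or 9 reads in their least covered library, had 53.5%, and those at 10 or 11 reads 52.1%.

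**Figure D1:**
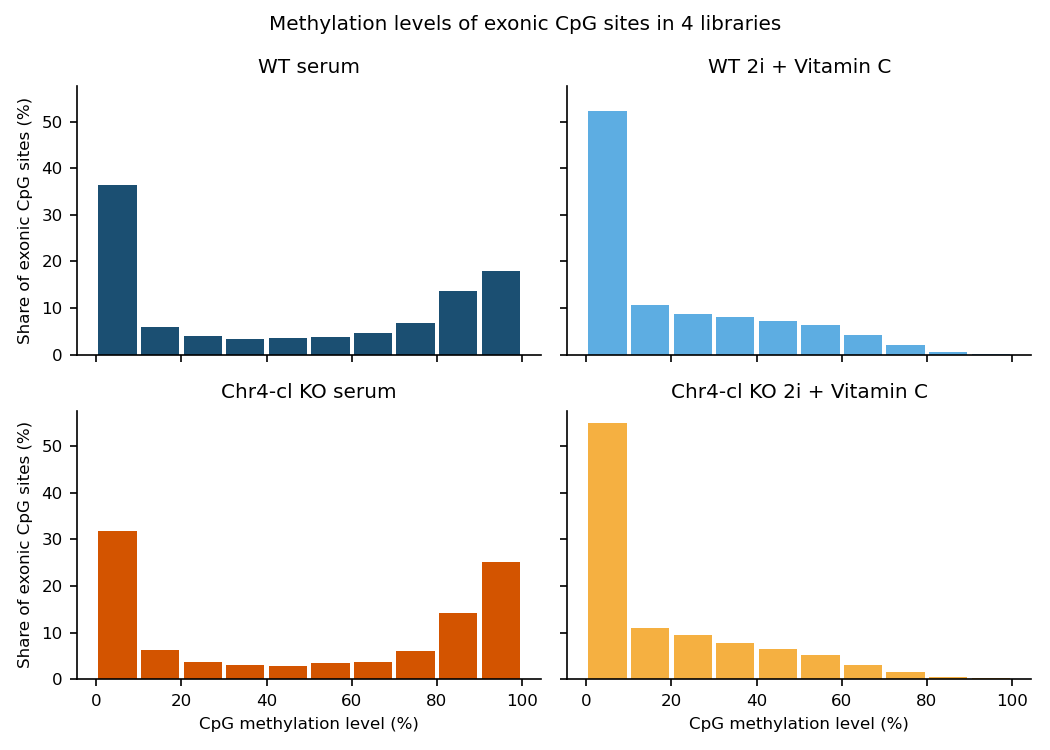
Distribution of methylation over the 45340 exonic CpG sites in each of the 4 libraries, as the share of sites (%) in bins of 10 percentage points. Both serum libraries have a peak at each end, with 31.6% of the sites of WT and 39.3% of those of KO cells at 80% or more, and both 2i + Vitamin C libraries lack the upper peak.

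The level of an exonic site went with the number of CpG dinucleotides around it, counted within 100 bp on either side. With 1 to 4 CpG dinucleotides in this window, mean methylation was 78.5% (WT) and 82.8% (KO) in serum, then 38.5% and 34.5% in 2i + Vitamin C. With 5 to 9 the 4 means were 69.8%, 76.6%, 30.8% and 27.4%, and with 10 to 14 they were 46.1%, 54.4%, 17.9% and 16%. With 15 to 19 they were 14.5%, 19.04%, 5.66% and 4.49%, and with 20 or more 3.56%, 5.13%, 2.43% and 1.38%. Thus the level dropped with each step in all 4 libraries. Intronic sites at the same distance from gene 5′ ends had a mean of 57.3% in WT cells in serum and distal intergenic sites 61.1%, but they had a median of 6 and 7 CpG dinucleotides in the window against 11 for exonic sites. At equal CpG number the order was different. With 5 to 9 CpG dinucleotides WT cells in serum had 69.8% at exonic, 67.2% at intronic and 71.2% at distal intergenic sites, and with 10 to 14 they had 46.1%, 38.7% and 55.2%. In 2i + Vitamin C the same bins gave 30.8%, 29.3% and 38.6%, and 17.9%, 17.0% and 30.2%. In each of these bins the exonic mean of WT cells lay between the intronic and the distal mean, but this did not hold in every bin. In serum WT cells had the highest mean at exonic sites with 1 to 4 CpG dinucleotides, at 78.5% against 75.8% (intronic) and 78.3% (distal), and with 20 or more, at 3.56% against 1.85% and 2.82%. These means are a description, since neighbouring sites share reads, and no test was made between the classes.

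**Figure D2:**
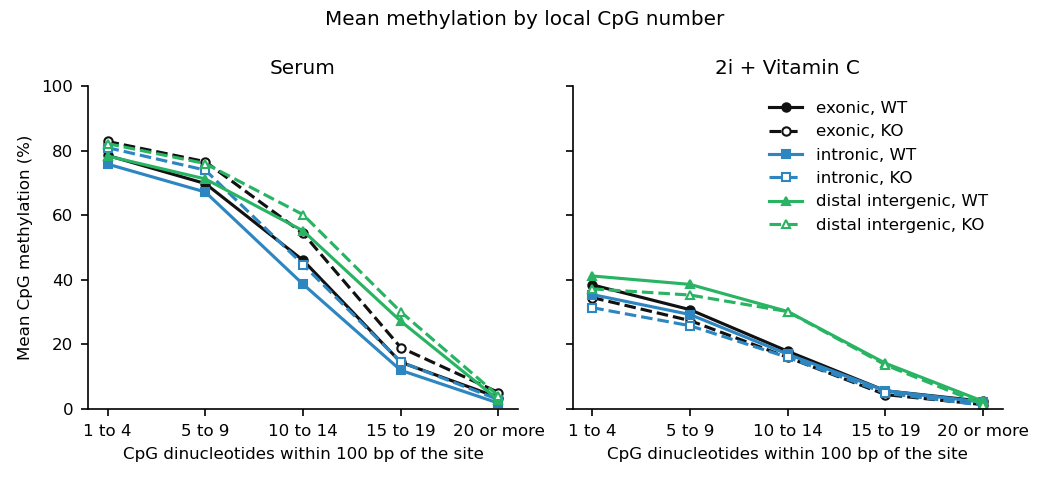
Mean methylation (%) by the number of CpG dinucleotides within 100 bp of the site, for exonic, intronic and distal intergenic sites more than 2 kb from gene 5′ ends, with WT as solid and KO as dashed lines. Exonic means drop from 78.5% to 3.56% in WT cells in serum and from 38.5% to 2.43% in WT cells in 2i + Vitamin C.

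The place of a site within the transcript went with its level as well. Coding sites, which were 35785 of the 45340, had a mean of 47.6% (WT) and 53.6% (KO) in serum, then 20.8% and 18.3% in 2i + Vitamin C. The 3815 sites in the 3′UTR had 54.2%, 60.4%, 23.2% and 20.8%. The 4312 sites in the 5′UTR had only 7.48%, 9.46%, 4.05% and 2.89%. Of those 5′UTR sites, 4080 lay within 2 kb of the 5′ end of an annotated transcript, though not of the gene, and had 5.27% in WT cells in serum, against 46.3% at the 232 farther ones. Over all exonic sites 34.7% lay within 2 kb of a transcript 5′ end. Without them mean methylation in WT cells in serum was 51.9%. Sites in internal exons had 55.8%, those in last exons 39.7% and those in first exons 8.18% in WT cells in serum. Among sites with up to 9 CpG dinucleotides in the window these 3 values were 74.6%, 68.7% and 43.1%, so the order was kept at low CpG number. Methylation in WT cells in serum was 28% at 2 to 5 kb from the gene's 5′ end and 53.9% beyond 50 kb, and 64.7% and 75.3% among sites with up to 9 CpG dinucleotides. CpG dinucleotides whose C was the first base of a codon had 54.5% in WT cells in serum, against 43.2% and 44.9% at the other codon positions. The higher level at the first base was also seen at equal CpG number, with 74.04%, 70.2% and 71.04% at the 3 codon positions for 5 to 9 CpG dinucleotides in the window and 53.6%, 47.4% and 48.8% for 10 to 14. It held for 15 to 19, with 20.02%, 14.6% and 16.02%, and for 20 or more, with 4.96%, 4.07% and 3.94%. The exception was 1 to 4 CpG dinucleotides, where the values were 80.4%, 81.1% and 81.6%.

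The sites of an exon were more alike than the exons were among each other. Among exons of intermediate methylation the gap was smaller, and it was absent in KO cells in 2i + Vitamin C. Choosing exons by level also narrows the spread between them. The spread among sites holds the counting error of single sites, while the level of an exon pools the reads of its sites. Exonic sites had a median of only 38 reads in KO cells in 2i + Vitamin C. The part of this error in the absent gap was not tested. For this and all later comparisons of exons, 2935 exons of 2378 genes with at least 5 exonic sites were used, which held 30682 sites. In WT cells in serum the SD among the sites of an exon had a median of 6.45 points, against an SD of 36.4 points between exons. In WT cells in 2i + Vitamin C these values were 5.77 and 18.6 points. Among the 897 exons between 20 and 80% in WT cells in serum, the median gap from the lowest to the highest site was 37.5 points. In such exons the SD within an exon had a median of 13.4 points, against 18.4 points between exons. In 2i + Vitamin C the exons between 20 and 80% had 11.7 points within and 12.9 points between exons in WT cells, and 12.9 and 12.4 points in KO cells.

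Growth in 2i + Vitamin C was compared with serum to see how much exonic methylation remained under a medium that lowers methylation across the genome. In WT cells exonic methylation was lower by 24.9 points on average in 2i + Vitamin C, so that 43.7% of the serum level was kept, and in KO cells by 32.8 points, with 34.2% kept. By Fisher's exact test on reads with Benjamini-Hochberg adjustment over all 400195 sites, and a difference of at least 20 points, 21963 exonic sites (48.4%) were called lower and 40 (0.0882%) higher in 2i + Vitamin C in WT cells. Over all covered sites 26.0% were called lower and 0.149% higher. In KO cells 24724 exonic sites (54.5%) were called lower and 1 higher, against 29.4% and 0.0290% of all sites. Intronic sites were called lower at 60.1% in WT and 65.5% in KO cells. Of the exons tested, 53.1% (1558) were called lower in WT and 59.6% (1749) in KO cells. The exons called higher were 0 in both genotypes (0%), while at an adjusted p under 0.05 alone, with no minimum difference, 197 were higher in WT and 0 in KO cells.

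Loss in 2i + Vitamin C was uneven among the exons with high methylation in serum. Of 798 exons at 80% or more in WT cells in serum, 238 were still at 50% or more in WT cells in 2i + Vitamin C and 52 were below 20%, with a median of 42.1% over the 798. In serum the 238 exons had a median of 92.5% (WT) and 93.7% (KO), and the 52 had 84.7% and 89.04%, so the groups already differed in their medians in serum. The 238 exons had a median of 8 CpG dinucleotides in the window around their sites and the 52 a median of 9.25. Internal exons made up 69.7% of the 238 and 59.6% of the 52. The exon values are reads pooled over the sites of the exon. Since a read that covers several neighbouring sites counts at each of them, their 95% Wilson intervals and p-values, which cover counting error only, are too narrow and too small.

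The highest methylation in WT cells in 2i + Vitamin C was in an exon of Flg2, a filaggrin family gene of the skin barrier, at chr3:93018299-93019525. Its 5 coding sites had 93.8% (WT) and 93.9% (KO) in serum, then 89.9% and 89.9% in 2i + Vitamin C, with an interval of 84.8 to 93.4% in WT cells in that medium. This exon therefore differed by 3.86 points between the media in WT cells, which was not past the test (Fisher's exact test, adjusted p = 0.332). It was covered by only 10 to 15 reads per site in KO cells in 2i + Vitamin C.

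The other 5 exons chosen for their level in WT cells in 2i + Vitamin C were at 95.1 to 96.5% in WT cells in serum and at 76.2 to 78.1% in 2i + Vitamin C. Col6a2, a chain of type VI collagen, had 95.7% (WT) and 95.6% (KO) in serum, then 78.1% and 77.7% in 2i + Vitamin C. Cdh15, the muscle cadherin, had 96.1% and 95.2% in serum, then 77.98% and 75% in 2i + Vitamin C. The last exon of the zinc finger gene Zfp629, with 28 sites, had 95.5% and 96.4%, then 77.5% and 71.9%. An exon of Odz2, which encodes a teneurin of the cell surface, had 27 sites and 96.5% and 96.7%, then 76.2% and 73.5%. The KO minus WT difference in these 4 exons lay between -5.53 and 0.923 points in the 2 media. Cit, the citron kinase of cytokinesis, had 95.1% and 97.1% in serum but 77.3% and 57.2% in 2i + Vitamin C, and was also called lower in KO cells there. Its 4 other tested exons had 16.5 to 36.5% in WT cells in 2i + Vitamin C, and 58.4 to 82.8% in WT cells in serum. Since the exon was chosen as the highest of its gene in 2i + Vitamin C, lower values there were given by the choice.

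At the other end, an exon of Add1, which encodes the membrane skeleton protein alpha-adducin, went from 91.3% in serum to 5.79% in 2i + Vitamin C in WT cells, and from 93.6% to 3.79% in KO cells. The 6 exons with the largest fall were from Add1, the zinc finger gene Zfp462, Adamtsl1, Zc3hc1, Wnt3a and Ttn. They were at 85.3 to 96.8% in WT cells in serum and at 3.73 to 12.3% in 2i + Vitamin C. Adamtsl1, an extracellular matrix protein, was the exception in position, since its 5 sites lay in the 3′UTR. Wnt3a, a Wnt ligand, had 85.8% (WT) and 73.6% (KO) in serum, a difference of 12.2 points, and 3.73% and 1% in 2i + Vitamin C. Ttn, the giant sarcomere protein titin, had 85.3% in WT cells in serum and 4.48% in 2i + Vitamin C in this exon, whereas its 3 other tested exons kept 50.4 to 58.5%. All 6 were also called when only the most covered site of each exon was tested. Each exon was chosen as the largest fall of its gene, so smaller falls in other exons, as in Ttn, were given by the choice.

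Gene groups spanned a wide range of levels. Over the 4162 genes with at least 3 exonic sites the median of the gene means was 65.8% (WT) and 77.4% (KO) in serum, then 21.1% and 18.3% in 2i + Vitamin C. The following medians are given in that order of libraries, as a description. Collagen chains, 25 genes of the extracellular matrix, had 87.7%, 90.0%, 43.7% and 40.8%. Col5a1 kept 60.6% and Col8a2 59.0% in WT cells in 2i + Vitamin C, while Col22a1 had 10.4%. Expressed metabolic and cytoskeletal genes, 12 in number, had 88.0%, 90.9%, 41.6% and 36.9%. The glycolytic enzyme gene Pfkl had 95.2%, 96.6%, 75.8% and 76.8%, and the tubulin gene Tubb5 of the same group had 8.53%, 13.3%, 2.03% and 2.53%. The 16 ADAMTS proteases had 76.4%, 80.7%, 24.3% and 26.7%.

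Voltage-gated ion channel genes, 48 in number, had 65.6%, 67.3%, 23.2% and 19.08%. They spanned nearly the whole range, from the sodium channel gene Scn10a with 96.2%, 96.4%, 71.3% and 76.1% to Kcnip3, a potassium channel partner, with 1.28%, 1.25%, 1.61% and 0.551%. The 27 axon guidance ligands and receptors had 65.6%, 77.3%, 21.2% and 22.2%, with Ephb6, an ephrin receptor gene, at 91.6% and the netrin gene Ntn1, with 53 sites, at 1.37% in WT cells in serum. The 14 imprinted genes had 55.6%, 71.0%, 17.6% and 15.03%. The 81 genes with a Zfp symbol had 46.9%, 64.1%, 14.1% and 13.1%, ranging from Zfp629 to Zfp771, whose 61 sites had a mean of 1.29% in WT cells in serum. The 4 clustered protocadherin genes had 25.3%, 35.7%, 6.99% and 2.54%.

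Developmental genes were at the low end in every library. The 11 Hox genes, which pattern the body axis, had medians of 3.33%, 5.05%, 2.40% and 0.964%. The 37 developmental homeobox and related factors had 5.90%, 9.95%, 2.60% and 1.64%, although Tbx4 had 74.2% and Pax7 71.1% in WT cells in serum. The 10 primed and early differentiation genes had 5.34%, 10%, 2.81% and 3.04%, with Sall1 at 54.6% and Sox17 at 1.40% in WT cells in serum. The 6 naive pluripotency genes had 13.1%, 15.1%, 3.24% and 2.38%. Among them Stat3, the transducer of LIF signalling, had 49.4%, 61.0%, 25.6% and 35.4%.

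Among genes of the methylation machinery, the 12 DNA methylation enzymes and readers had 65.5%, 81.8%, 17.7% and 12.7%. Dnmt3l, the cofactor of the DNMT3 enzymes, had 72.7%, 89.2%, 51.9% and 51.0% at 5 sites, and the dioxygenase gene Tet3 had 73.8%, 86.7%, 38.4% and 36.1% at 34 sites. The 8 KAP1 and H3K9 methylation genes, whose products act with KRAB-ZFPs, had 81.4%, 78.5%, 25.3% and 22.7%. Nsd1 was the 1 H3K36 methyltransferase gene with 3 sites and had 33.8%, 27.8%, 17.98% and 11.6%. None of the 30 germline genes had 3 exonic sites. The histone genes were represented by Hist2h2bb alone, with 1.02%, 2.36%, 3.10% and 3.33%. The 7 genes with a ribosomal protein symbol had 33.4%, 53.1%, 18.3% and 15.3%, but the pair with the highest level, Rps6kc1 and Rps6ka1, are kinase genes caught by their names.

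Exonic methylation was higher in KO than in WT cells in serum at most sites, chiefly at sites of intermediate level. The mean difference was 5.57 points with an SD over sites of 10.5 points and a median of 2.99 points. It was positive on each of the 19 autosomes, from 4.75 to 6.82 points, and 71.7% of the sites were higher. With reads pooled over sites the difference was only 0.917 points. Fisher's exact test called 1880 exonic sites (4.15%) higher and 89 (0.196%) lower in KO cells, against 1.79% higher and 0.115% lower over all covered sites. Intronic sites were called higher at 3.26%. Their median coverage in serum was 45 (WT) and 50 (KO) reads, against 60 and 75 at exonic sites. With a difference of 20 points and no test the order turned, with 9.54% of exonic and 10.1% of intronic sites higher. When every site was thinned to its lowest coverage among the libraries, 1.86% of the exonic sites were called higher and 0.0970% lower. No thinned share over all covered sites is given, so 1.86% cannot be read against the unthinned 1.79%.

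Split by the mean of the WT and KO levels in serum, which sets no group by 1 genotype alone, the difference was 1.01 points below 5%, 12.8 points at 20 to 40% and 17.2 points at 40 to 60%. It was 13.3 points at 60 to 80%, 3.72 points at 80 to 95% and 0.516 points from 95%. Levels near either end leave less room for a difference, and whether this alone shapes the order was not tested. By CpG number the difference was 4.33 points with 1 to 4, 8.33 points with 10 to 14 and 1.57 points with 20 or more CpG dinucleotides in the window.

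Among the exons 230 (7.84%) were called higher and 6 (0.204%) lower in KO cells in serum. Their call rested on pooled reads. With only the most covered site of each exon, an alternative added after seeing the data, 207 were called higher and 7 lower, of which 133 and 5 were also called from pooled reads. The 230 exons belonged to 228 genes on 19 chromosomes and 171 were entirely coding. Their median was 40% (WT) and 67.8% (KO) in serum, but 9.59% and 8.49% in 2i + Vitamin C.

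**Figure D3:**
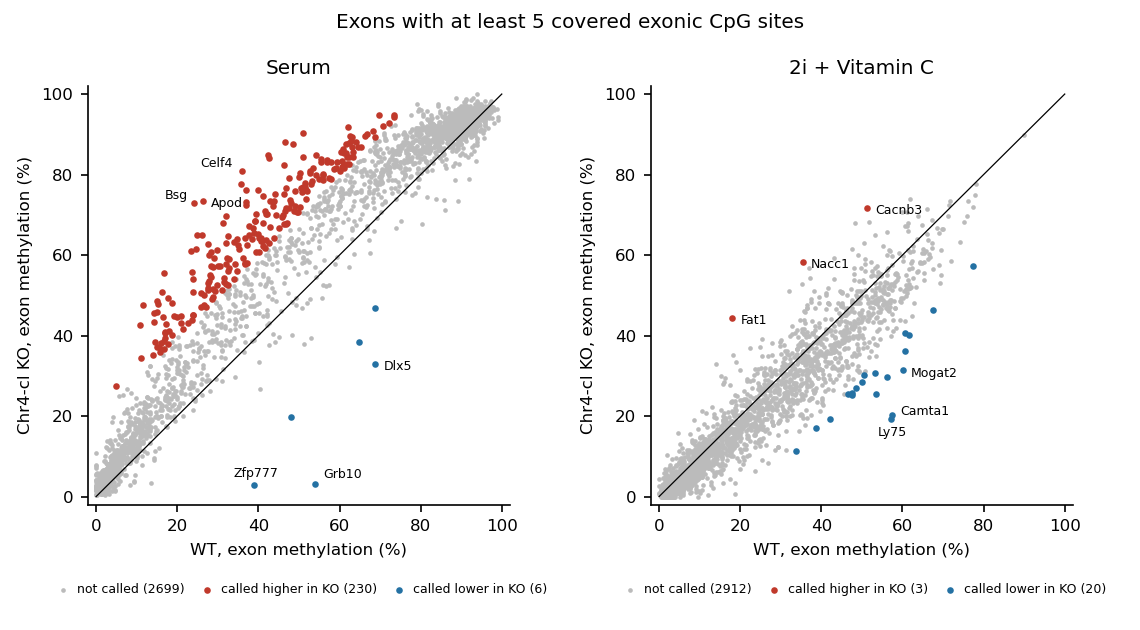
Exon methylation (%) in WT (horizontal axis) against KO cells (vertical axis) in serum and in 2i + Vitamin C for the 2935 exons with at least 5 exonic sites; the line marks equal values and colours mark called exons. In KO cells 230 exons were called higher and 6 lower in serum, while 3 were called higher and 20 lower in 2i + Vitamin C.

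The largest gain in serum was in a coding exon of Bsg, the cell surface glycoprotein basigin, at chr10:79171442-79171789. It had 24.1% (WT) and 72.9% (KO) in serum, then 9.50% and 7.69% in 2i + Vitamin C. All 5 sites were higher in KO cells in serum, and the WT interval of 17.1 to 32.8% and the KO interval of 65.0 to 79.5% did not overlap. The gain was also called from the most covered site, where it was 51.2 points (Fisher's exact test, adjusted p = 0.00256).

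Arid5b, which encodes a DNA-binding chromatin factor, was the most broadly covered of these exons. Its last exon at chr10:67558341-67561417 had 35.7% (WT) and 77.6% (KO) in serum, then 12.1% and 10.3% in 2i + Vitamin C, and each of its 25 sites was higher in KO cells in serum. Aen, a nuclease gene of the p53 response, had 42.4% (WT) and 84.8% (KO) in serum, then 15.2% and 17.5% in 2i + Vitamin C. Klf3, a Krüppel-like repressor, had 46.5% and 88.1%, then 12.7% and 15.4%. Celf4, a splicing regulator, had 35.9% and 80.9%, then 3.55% and 1.41%, at 8 sites in its 3′UTR, whereas its 3 other tested exons were at most at 2.94% in any library. In these 4 exons every site was higher in KO cells in serum, and the 2i + Vitamin C levels of the genotypes differed by at most 2.66 points. The Celf4 exon was chosen as the largest gain of its gene, so smaller gains in its other exons were given by the choice.

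Apod, which encodes apolipoprotein D, is the least certain of this set. Its exon had 26.2% (WT) and 73.4% (KO) in serum, then 3.49% and 5.77% in 2i + Vitamin C, from 12 to 16 reads per site in serum. Of its 5 sites 4 were higher in KO cells in serum. The site of highest summed coverage, apart from the others, was at 0% in every library, so the call was lost when that site was tested alone.

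The 6 exons called lower in KO cells in serum were from Grb10, Zfp777, Dlx5, Zfp787, Lrrc8d and Stox2. Grb10, an imprinted gene whose product restrains insulin and growth factor signalling, had the largest loss. Its exon at chr11:11925841-11926327 is annotated as 5′UTR, 12.7 kb from the gene's 5′ end, and holds a median of 22 CpG dinucleotides in the window around its 9 sites. It had 54.1% (WT) and 3.02% (KO) in serum, then 18.7% and 0.699% in 2i + Vitamin C. The 9 sites were lower in KO cells in both media, although the difference of -18.02 points in 2i + Vitamin C did not reach 20. The loss was not limited to the exon. At 17 further covered sites within 1000 bp of it, the means were 60.04% (WT) and 8.28% (KO) in serum, then 32.3% and 2.20% in 2i + Vitamin C.

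Zfp777, a zinc finger gene, had 39.0% (WT) and 2.88% (KO) in serum, then 13.2% and 2.03% in 2i + Vitamin C at 18 sites of its last exon. Every one of these sites was lower in KO cells in both media. Zfp787, another zinc finger gene, had 48.0% and 19.7%, then 18.6% and 3.37%, with its 28 sites lower in KO cells in both media. Dlx5, a homeobox factor of craniofacial and limb development, had 68.9% and 32.9%, then 10.8% and 2.80%, and its 6 sites were lower in both media. These exons and that of Grb10 were also called from their most covered site.

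Lrrc8d, a subunit of the volume-regulated anion channel, had 64.8% (WT) and 38.5% (KO) in serum, then 5.95% and 1.88% in 2i + Vitamin C. A second exon of the gene was at 94.7% (WT) and 96.3% (KO) in serum. The call for Lrrc8d was lost at a coverage minimum of 20 reads, where the difference was -17.2 points. Stox2, a gene of the storkhead family, had 68.9% and 46.8%, then 15.97% and 18.1%, with 6 of 9 sites lower in KO cells in serum. Its call was lost at a coverage minimum of 5 reads, after thinning and at its most covered site.

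By gene group, the counts of exons called in serum are given beside the shares over all tested exons, 7.84% higher and 0.204% lower in KO cells, and most groups held few exons. Of the 72 exons of Zfp genes, 9 were called higher and 2 lower. Of the 8 exons of DNA methylation enzymes and readers, 3 were called higher and 0 lower. Of 19 exons of axon guidance genes 2 were called higher, of 13 exons of ADAMTS proteases 2, of 16 collagen exons 1, of 50 exons of ion channel genes 1 and of 48 exons of developmental factors 0, with 1 lower. Of 11 exons of imprinted genes 1 was called higher and 1, that of Grb10, lower. The naive pluripotency, primed, Hox, protocadherin and expressed metabolic lists had 1 exon each called higher, of 4, 11, 10, 11 and 3 tested. The KAP1 and H3K9 methylation genes had 0 of 5 called, and the ribosomal list 0 of 3.

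In 2i + Vitamin C the sign was turned, and exonic methylation was slightly lower in KO than in WT cells. The mean difference was -2.32 points with an SD over sites of 9.20 points and a median of -1.28 points. It was negative on each of the 19 autosomes, from -3.01 to -1.63 points, and 61.1% of the sites were lower. With reads pooled over sites the difference was -0.861 points. The sign turned in the other site classes too. Intronic sites had a mean difference of 5.44 points in serum and -2.95 points in 2i + Vitamin C. Distal intergenic sites had 4.15 and -2.46 points, and sites within 2 kb of gene 5′ ends 1.74 and -1.09 points. Fisher's exact test called 163 exonic sites (0.360%) lower and 27 (0.0596%) higher, against 0.405% lower and 0.0917% higher over all covered sites. Both exonic shares are near those of all sites. They were below those of intronic sites, at 0.507% lower and 0.107% higher, and of distal intergenic sites, at 0.904% and 0.291%. By the same serum levels the difference was -0.722 points below 5%, -0.897 points at 40 to 60%, -4.39 points at 80 to 95% and -5.08 points from 95%. In points, the sites most methylated in serum thus had the largest deficit in KO cells in 2i + Vitamin C. Relative to the WT level it was not the largest. The 2i + Vitamin C means were 55.6% (WT) and 50.6% (KO) from 95%, 6.86% and 5.55% at 20 to 40%, and 1.86% and 1.14% below 5%. Below 5% the WT mean was 1.42% in serum, no higher than in 2i + Vitamin C. The part of incomplete bisulfite conversion in such low values was not tested. Split by the mean level in 2i + Vitamin C, the difference was -4.52 points at 20 to 40% and -1.31 points from 60%. The KO library in this medium was the shallowest of the 4.

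Among the exons 20 (0.681%) were called lower and 3 (0.102%) higher in KO cells in 2i + Vitamin C. These calls depended on the pooling of reads. From the most covered site of each exon 20 were called lower as well, but only 5 of these were among the 20 above, and of 2 called higher 1 was among the 3. The 20 exons lay in 20 genes on 13 chromosomes, and 18 were entirely coding. In WT cells they were at 81.5 to 97.7% in serum and 33.7 to 77.3% in 2i + Vitamin C, and in KO cells at 11.3 to 57.2% in 2i + Vitamin C. In serum 10 of them were lower and 10 higher in KO cells, with a median difference of 0.118 points.

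The exon of Ly75, the endocytic receptor DEC-205 of dendritic cells, had the largest loss, at chr2:60130160-60131995. It had 93.9% (WT) and 89.1% (KO) in serum, then 57.0% and 19.3% in 2i + Vitamin C. All 5 sites were lower in KO cells in 2i + Vitamin C, and the intervals, 49.2 to 64.6% in WT and 12.2 to 29.0% in KO cells, did not overlap. Each of the sites was covered by only 16 or 17 reads in the KO library. From the most covered site alone the difference was -30.8 points, which was not past the test (Fisher's exact test, adjusted p = 0.572). Ly75 lies on chromosome 2, whose read share was higher in KO cells, and the part of this in the result was not tested.

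Camta1, a calmodulin-binding transcription activator, showed the loss at more sites than the other 5 exons of this set. Its exon at chr4:150517825-150519677 had 94.98% (WT) and 94.4% (KO) in serum, then 57.4% and 20.2% in 2i + Vitamin C. All 15 sites were lower in KO cells in 2i + Vitamin C, over a stretch of more than 1 kb that no single read spans. The intervals in that medium were 53.6 to 61.2% in WT and 16.7 to 24.2% in KO cells. The most covered site differed by -33.8 points and passed on its own (Fisher's exact test, adjusted p = 0.0214).

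The next exons by loss were those of Mogat2, C330019G07Rik, Frmd4b and Glis2. Mogat2, an enzyme of triglyceride synthesis in the gut, had 89.3% (WT) and 92.3% (KO) in serum, then 60.1% and 31.3% in 2i + Vitamin C. Its most covered site differed by only -4.82 points. The exon of C330019G07Rik, which overlaps an exon of Pisd so that its reads belong to both annotations, had 93.8% and 92.1%, then 53.6% and 25.6%, and was called from its most covered site too. Frmd4b, a FERM domain gene, had 97.1% and 97.7%, then 56.1% and 29.6%. Glis2, a Krüppel-like factor of the kidney, had 97.7% and 96.8%, then 60.6% and 36.1%. Neither Frmd4b nor Glis2 passed the test from its most covered site, where the differences were -45.5 and -32.8 points. In these 4 exons every site was lower in KO cells in 2i + Vitamin C. Losses were smaller at the few further covered sites within 1000 bp of exons of this set. In 2i + Vitamin C the 1 site beside Ly75 had 30.7% (WT) and 18.4% (KO), and the 1 beside Camta1 19.35% and 13.95%. The 2 beside C330019G07Rik had means of 53.0% and 46.4%.

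Only 3 exons were called higher in KO cells in 2i + Vitamin C, those of Fat1, Nacc1 and Cacnb3. Fat1, a giant atypical cadherin, had 91.6% (WT) and 96.5% (KO) in serum, then 17.96% and 44.4% in 2i + Vitamin C in its exon at chr8:46095147-46095479. All 13 sites were higher in KO cells, but they lay within the short window shown above and were covered by 19 to 21 reads each in the KO library. The most covered site differed by 25.9 points and did not pass the test on its own (Fisher's exact test, adjusted p = 0.224). The 3 other tested exons of Fat1 had 4.87 to 33.7% in WT and 6.17 to 27.3% in KO cells in 2i + Vitamin C. Since the named exon was chosen as the largest gain of its gene, smaller gains there were given by the choice.

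Nacc1, a BTB domain transcription regulator of ES cells, had 80.4% and 88.5% in serum, then 35.4% and 58.3% in 2i + Vitamin C, with 6 of 6 sites higher in KO cells in that medium. It was the 1 exon of the 3 called from its most covered site as well, where the difference was 36.6 points (Fisher's exact test, adjusted p = 9.4e-06). Cacnb3, a calcium channel subunit, had 86.3% and 90.1%, then 51.2% and 71.8%, from 13 reads per site in the KO library. Its difference of 20.6 points became 2.55 points at a coverage minimum of 5 reads, where the exon had 9 sites, and the call was lost there. The call was also lost after thinning, with a difference of 16 points, and at the most covered site, with one of 30.6 points. At 4 further covered sites within 1000 bp of the Cacnb3 exon the direction was opposite. Their 2i + Vitamin C means were 28.2% in WT and 17.6% in KO cells.

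**Figure D4:**
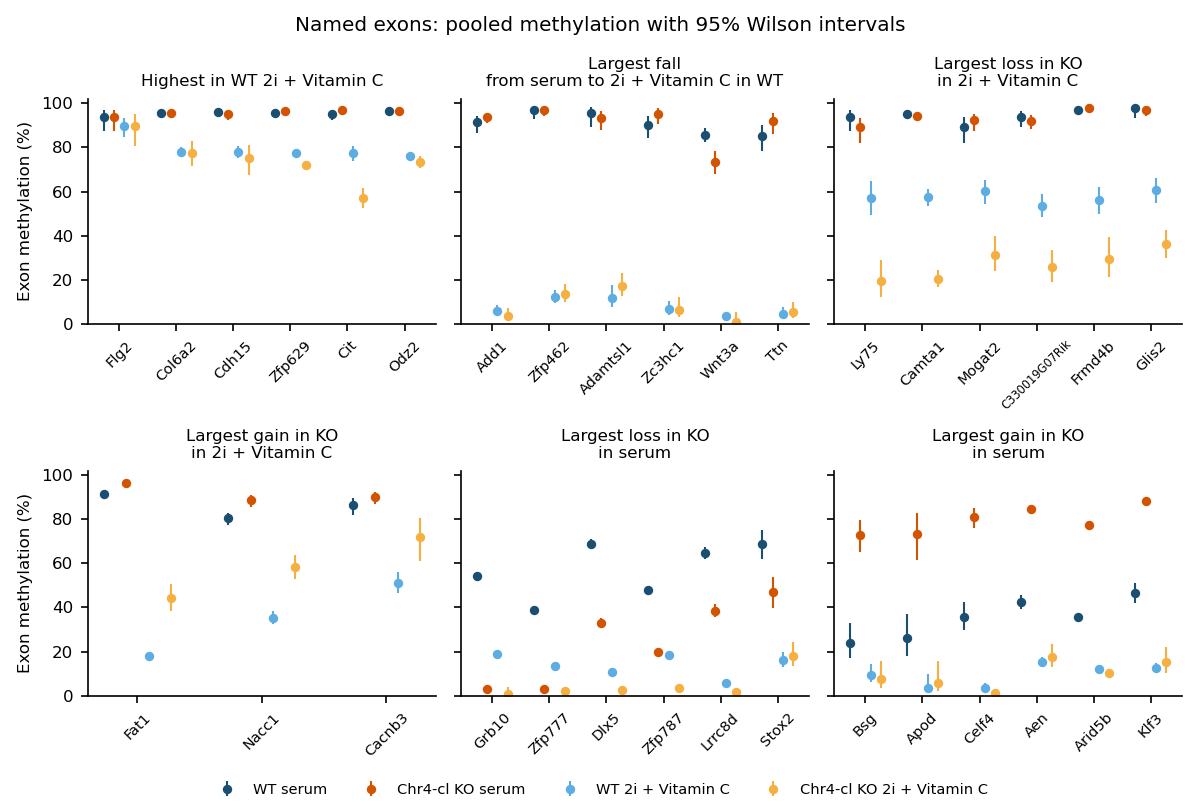
Methylation (%) of the named exons in the 4 libraries, 1 panel per set, with points for the reads pooled over the exon's sites and bars for 95% Wilson intervals, which cover counting error only. The sets separate by medium: the 6 exons with the largest loss in KO cells in 2i + Vitamin C were at 89.08% or more in both genotypes in serum, and the 6 with the largest gain in serum were at 17.53% or less in both genotypes in 2i + Vitamin C.

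The genotype difference itself differed between the media at many exonic sites. The KO minus WT difference in 2i + Vitamin C minus that in serum had a mean of -7.88 points, and by a z-test on arcsine-transformed levels with the same adjustment and minimum of 20 points, 2930 exonic sites (6.46%) were called with a lower and 112 (0.247%) with a higher value in 2i + Vitamin C. Over all covered sites 3.76% were called in either direction. Intronic sites were near the exonic ones, with 6.21% called with a lower and 0.291% with a higher value. Distal intergenic sites had 5.03% and 0.549%. After thinning, 4.06% of the exonic sites had a lower value. This cannot be read against the 3.76% over all covered sites, which was not thinned. Among the exons 12.0% were called, 343 with a lower and 10 with a higher value in 2i + Vitamin C. Bsg had a difference of -50.6 points between the media, Arid5b -43.7 points and Camta1 -36.6 points, while Grb10 had 33.0 points and Fat1 21.5 points. These exons were named for a called difference in a single medium, which is a term of this value. A large value of the matching sign was thus nearly given by the choice. In Grb10 the WT level in 2i + Vitamin C was only 18.7%, so the loss in points could not be as large there as in serum. No exon was called lower in KO cells in both media or higher in both, and none was called in opposite directions. The levels left little room for such pairs. The 6 exons called lower in serum were at 5.95 to 18.7% in WT cells in 2i + Vitamin C, so a loss of 20 points was not possible there. Exons called in 2i + Vitamin C were at 80.4% or more in WT cells in serum, so a gain of 20 points was not possible there. The 4 comparisons share libraries, so these counts are not independent of each other.

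Site by site, the covered sites of the Zfp777 and Arid5b exons spanned only a stretch of the exon. In Camta1 the lowest and highest sites in 2i + Vitamin C were 39.3 and 76.7% in WT and 0 and 42.9% in KO cells, so the ranges overlapped only slightly. In Zfp777 the sites in serum ran from 36.1 to 65.2% in WT and from 0 to 10% in KO cells, with no overlap. In Arid5b they ran from 21.03 to 84.0% in WT and from 62.7 to 95% in KO cells, and the WT sites were highest at the 5′ end of the stretch. In Fat1 the KO sites in 2i + Vitamin C ran from 33.3 to 55.0% and the WT sites from 5 to 40.5%. In Stox2 the difference in serum was uneven along the exon. Its 5 sites at 1186 to 1428 bases from the exon's 5′ end had 92.9 to 100% in WT and 91.7 to 100% in KO cells, while its 4 sites at 585 to 626 bases had 20 to 40% and 3.03 to 30%.

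**Figure D5:**
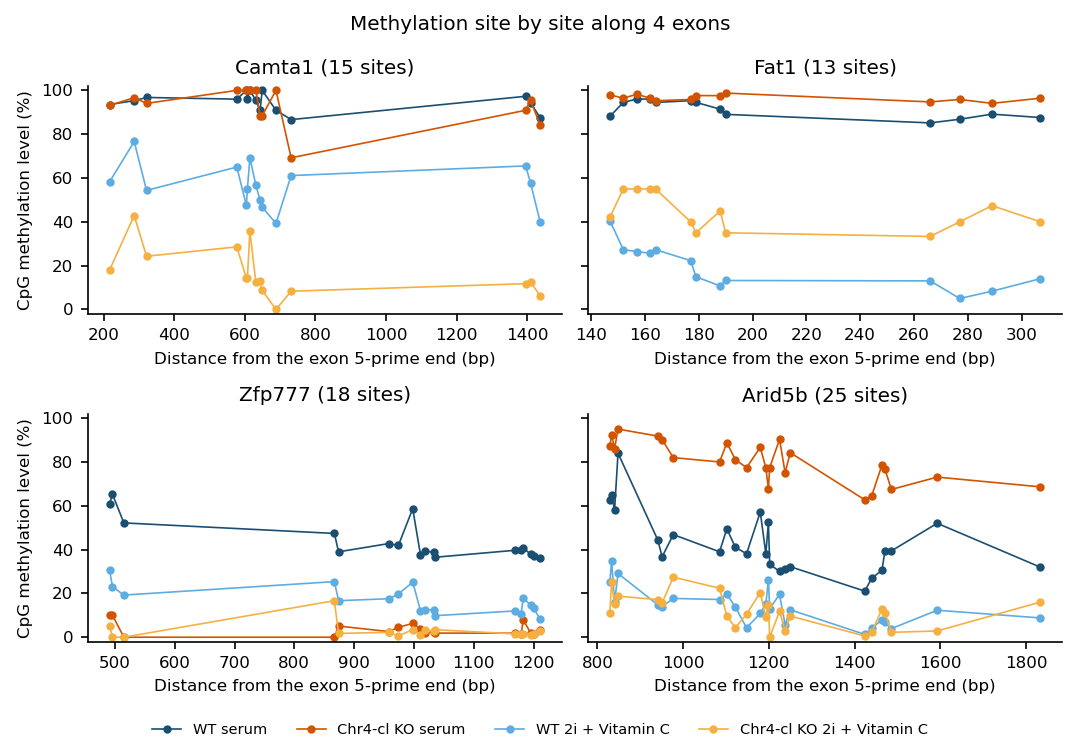
Methylation level (%) of each covered site in exons of Camta1, Fat1, Zfp777 and Arid5b, by distance in bp from the exon's 5′ end, with 1 line per library. The KO line in 2i + Vitamin C lies below the WT line at all 15 sites of Camta1 and above it at all 13 of Fat1, and the KO line in serum lies below the WT line at all 18 sites of Zfp777 and above it at all 25 of Arid5b.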

How the data were processed

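RRBS-seq libraries were made by the authors from MspI-digested genomic DNA of the 2 genotypes in each medium, with 1 library per condition. The authors used Trim Galore for trimming and Bismark for mapping to mm9, then merged the 2 cytosines of each CpG dyad with a custom script (versions not given in the sources used here). The deposited values per CpG were counts of reads and of methylated reads, and a methylated fraction, which was not used since it is their quotient. The WT serum and KO 2i + Vitamin C files each hold 2 tables joined end to end, whose second tables added 59 and 54 entries of at least 10 reads, and 332 and 830 entries at positions listed more than once were left out. Of 532232 CpG positions checked, 532232 fell on CG of mm9.

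Sites were assigned to exons with GENCODE vM1. Summed reads per library ranged from 42684672 to 90649194, and exonic sites had medians of 38 to 90 reads. PCR reads carried no molecular identifiers, so intervals and tests cover counting error only. Sites were compared by Fisher's exact test (two-sided) with Benjamini-Hochberg adjustment over 400195 sites, and exons with at least 5 sites from pooled reads over 2935 exons. A call needed an adjusted p under 0.05 and a difference of at least 20 percentage points. The difference between media was tested by a z-test on arcsine-transformed levels. Named exons were, 1 per gene, the 6 highest in WT 2i + Vitamin C, the 6 with the largest called fall to 2i + Vitamin C in WT, and the up to 6 with the largest called loss and gain in KO in each medium. In each of 18 gene lists the 2 highest and 2 lowest genes in WT 2i + Vitamin C could be named. Members, lists and tests were chosen with earlier results of these data known. Alternatives changed the coverage minimum, the distance limit, the part of the exon, the weighting, the thinning and the sites per exon. Testing only the most covered site of an exon, leaving out chromosome 2 and the alternatives of named exons were added after seeing the data. Scripts were tested on simulated data and used Python 3.11.15, scipy 1.17.1, matplotlib 3.10.9, pandas 2.3.3, pysam 0.24.0, numpy 2.4.6 and numba 0.67.0.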

Additional observations from a re-analysis of the deposited data

Results flagged for a closer look

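The genotype difference of exonic CpG sites had opposite means in the media. It was 5.569 points in serum, higher in KO cells, and -2.315 points in 2i + Vitamin C. The difference between these means was not tested because each condition had 1 library. The change of sign was not particular to exons. Over all covered sites the means were 3.119 and -1.739 points, and at intronic sites 5.444 and -2.953 points.

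At single exons the genotype difference in 2i + Vitamin C minus that in serum was tested by the z-test on pooled reads. Apart from that of Cit, the exons were chosen for a large called difference in a single medium, which is a term of this value. A large value of the matching sign was thus nearly given by the choice. Values lower in 2i + Vitamin C were -50.56 points in Bsg, -47.11 in Celf4, -44.91 in Apod, -43.65 in Arid5b, -40.06 in Aen and -38.92 in Klf3, the exons with the largest gain in KO cells in serum. They were -36.63 in Camta1, -32.97 in Ly75, -31.71 in Mogat2, -27.14 in Frmd4b, -26.3 in C330019G07Rik, -23.58 in Glis2 and -22.18 in Cit, exons called lower in KO cells in 2i + Vitamin C. Values higher in 2i + Vitamin C were 33.02 points in Grb10, 27.92 in Dlx5, 24.89 in Zfp777, 24.12 in Stox2 and 22.26 in Lrrc8d, which were called lower in KO cells in serum, and 21.52 in Fat1. The exons called lower in serum were at 5.95 to 18.7% in WT cells in 2i + Vitamin C, so as large a loss was not possible there. A read that covers several sites of an exon counts at each in this test, and no test of the difference between media was made from 1 site per exon.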

How the results depend on the processing

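Of 200 alternative values of means and counts, 120 stayed within the limit (1.5 times for counts, the 95% Wilson interval for means) and 0 were opposite in direction. Only the mean differences could be opposite, since levels and shares called have no sign. Some of the 120 were nearly sure to stay. Dropping the deepest 0.1% of positions kept all 45340 exonic sites, and dropping the entries of the second tables kept 45334. Means over sites follow in the order WT serum, KO serum, WT and KO in 2i + Vitamin C. With coding sites only they were 47.57, 53.56, 20.75 and 18.31%, with a coverage minimum of 20 reads 41.1, 46.56, 17.92 and 15.73%, and with 5 reads 46.59, 52.21, 20.4 and 18.05%. More than 2 kb from transcript 5′ ends they were 51.94, 58.24, 22.43 and 19.8%, and more than 5 kb from gene 5′ ends 48.67, 54.51, 21.26 and 18.8%. With each exon counted once they were 62.25, 68.09, 27.71 and 24.7%, and with reads pooled 32.94, 33.86, 13.76 and 12.9%. The 2i + Vitamin C minus serum difference in WT and KO cells was -26.83 and -35.25 points with coding sites, -23.18 and -30.83 with 20 reads, -26.19 and -34.16 with 5 reads, -29.51 and -38.44 beyond 2 kb of transcript 5′ ends, -27.41 and -35.72 beyond 5 kb, -34.55 and -43.39 with each exon counted once, and -19.19 and -20.96 with reads pooled. The KO minus WT difference in serum was 6.297 points beyond 2 kb of transcript 5′ ends and 0.917 with reads pooled, and in 2i + Vitamin C -3.001 with each exon counted once and -0.8605 with reads pooled.

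Shares of exonic sites called moved with the call rule. With 20 points and no test they were 9.543% higher and 0.6595% lower in KO cells in serum, 1.577% higher and 4.369% lower in 2i + Vitamin C, and 0.01544% higher in 2i + Vitamin C than serum in KO cells. With an adjusted p alone they were 8.244% higher in KO cells in serum, 0.1037% higher and 0.9418% lower in 2i + Vitamin C, and 1.275% in WT and 0.05955% in KO cells higher in 2i + Vitamin C than in serum. Thinning gave 1.857% higher and 0.09704% lower in serum, 0.01323% higher and 0.1764% lower in 2i + Vitamin C, 0.05734% in WT and 0% in KO cells higher in 2i + Vitamin C than in serum, and 4.058% for the lower difference between media. With 20 reads 0.09257% were higher and 0.5394% lower in KO cells in 2i + Vitamin C, and with 5 reads 0.2374% were lower. The share higher in 2i + Vitamin C than in serum in KO cells was 0% with coding sites or 20 reads, 0.0083% with 5 reads and 0.00338% beyond 2 kb of transcript 5′ ends. Among exons with at least 10 sites, 5% were higher in KO cells in serum, 0.4% lower in 2i + Vitamin C, and 30.1% in WT and 36.8% in KO cells lower in 2i + Vitamin C than in serum. Among exons with at least 3 sites, 0.2708% were higher and 1.715% lower in KO cells in 2i + Vitamin C, and 0.01805% in WT and 0.01805% in KO cells higher in 2i + Vitamin C than in serum. Thinning before pooling gave 0.1704% of exons higher in KO cells in 2i + Vitamin C, and 1 site per exon 0.06814% higher in 2i + Vitamin C than in serum in WT cells. The causes of these moves were not tested, beyond fewer sites or reads entering.

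Of 92 alternatives for named exons 79 kept the call and 13 lost it. From 1 site each, 19 of 27 exons were called. The 8 lost were Ly75, Mogat2, Frmd4b, Glis2, Fat1, Cacnb3, Stox2 and Apod. At 20 reads 16 named exons had under 5 sites. No paired analysis was possible because the labels give no replicate numbers and there was 1 library per condition. Leaving out a replicate was likewise not possible. The KO 2i + Vitamin C library was the shallowest of the 4.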
